A study of Mus musculus with 18 samples.

Results

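Mural granulosa cells of the mouse were compared at 12 h and at 0 h after human chorionic gonadotropin (hCG), that is, near the time of ovulation and in the preovulatory state before the ovulatory stimulus. The comparison holds 6 of the 18 libraries of the series, chosen by their titles: 3 of mural cells at 0 h and 3 at 12 h, all from ovary and all labelled wild type. The other 12 libraries are mural cells at 4 h and cumulus cells, which surround the oocyte, at 0, 4 and 12 h. All groups share the wild-type genotype and differ in cell type and in hours after hCG, while strain, age, any priming before hCG and the number of animals in a library are not given in the labels. The 3 mural libraries at 4 h entered the same model to add to the estimate of spread, and levels at 4 h are given where the path from 0 to 12 h matters.

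Mural granulosa cells line the wall of the follicle. Before ovulation they answer follicle-stimulating hormone (FSH), divide, and convert androgen to estrogen with the enzyme aromatase. hCG acts on the receptor of luteinizing hormone (LH), which signals through cAMP. The cells then stop dividing, turn to progesterone, secrete proteases, vasoactive peptides and prostaglandins that help the follicle open, and become the granulosa-derived cells of the corpus luteum.

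The 9 mural libraries held 32211630.0 to 47919446 counts. Levels are CPM, a gene's count relative to the TMM-scaled total of its library, and are not corrected for gene length, so levels are compared between libraries and not between genes. The labels do not say that libraries of a group came from separate animals, and p-values then cover only library-to-library spread, which may be technical. Oocyte markers summed to 153 to 659 CPM at 0 h and 138 to 333 CPM at 12 h, and replicate 3 at 0 h carried the most. Of the 14 oocyte markers tested in edgeR, 0 passed an adjusted p of 0.05 and 0 an unadjusted p of 0.05 (DESeq2 called 0 and limma voom 0), while 56.2% of all genes tested passed the adjusted threshold between 0 and 12 h. The fitted log2 changes of the 14 were nevertheless all negative, from -0.73 to -0.36 (median -0.62). With the wide spread at 0 h, the absence of calls does not mean that levels were equal. Replicate 3 of 0 h also had the highest summed levels of stromal and of smooth muscle and pericyte markers. Mitochondrially encoded genes took 4.877, 5.023 and 6.081% of counts at 0 h and 3.972, 3.54 and 4.153% at 12 h.

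Among the 13 marker lists the 10 granulosa markers had the highest sum at 0 h, although sums are not corrected for gene length. Their sum was 19066 to 23692 CPM at 0 h and 4034 to 4879 CPM at 12 h, while 8 markers of luteal cells summed to 5619 to 6298 CPM at 0 h and 10568 to 12547 CPM at 12 h. Inha and Inhba made up most of the granulosa sum at 0 h. Of the 10 granulosa markers 8 fell, and Amh and Nr5a2 were not called. Of the 8 luteal markers 7 rose. Hsd3b1, which made up most of the luteal sum at 0 h, fell from a mean of 4246 CPM to 1347 CPM. Markers of other cells moved too. Of 8 theca markers 6 fell and Hhip rose (26.6% of all genes tested fell and 29.6% rose), with sums of 466 to 588 CPM at 0 h and 171 to 188 CPM at 12 h. Of 7 stromal markers 4 fell, with sums of 251 to 508 CPM at 0 h and 148 to 245 CPM at 12 h. All 7 erythroid markers tested rose, Alas2 and globins with near-identical copies among them, with sums of 86.8 to 148 CPM at 0 h and 389 to 744 CPM at 12 h. Neutrophil markers summed to 0.366 to 1.22 CPM at 0 h and 8.66 to 10.3 CPM at 12 h, mostly from Camp, while Ly6g was at 0 counts in all 6 libraries. The part of these other cells in the results below was not tested, and in bulk libraries fewer cells of a type and less RNA per cell cannot be told apart.

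**Figure D1:**
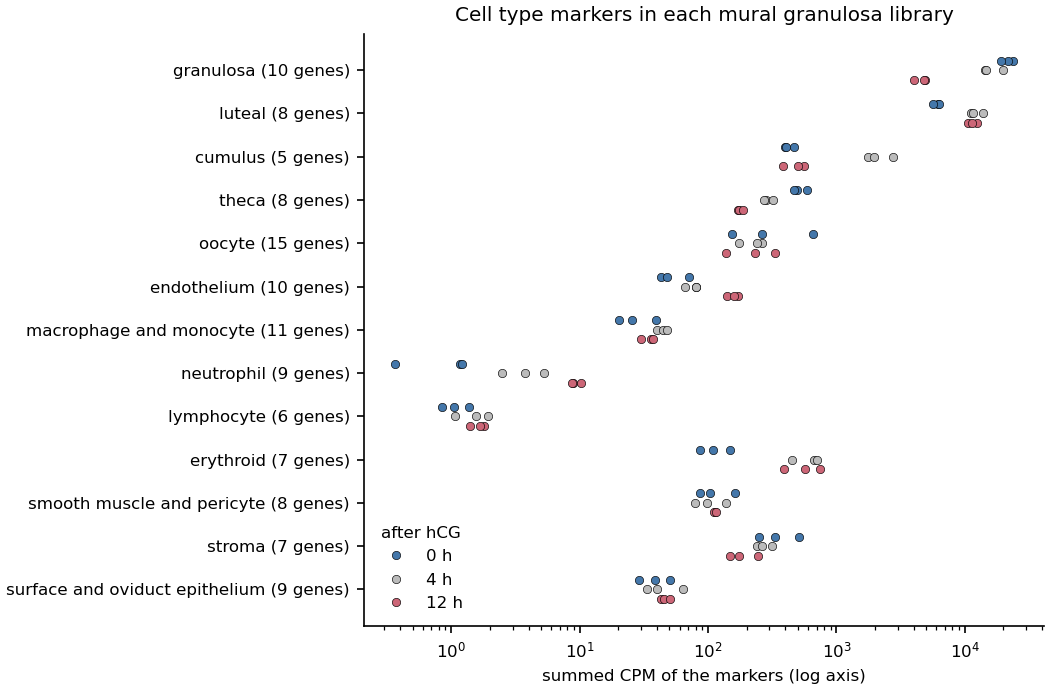
Summed CPM (log axis) of 13 lists of cell type markers in each mural library, with 3 points per list and time. The granulosa sum is lower in every library at 12 h than in any at 0 h, and the erythroid sum lies between 389 and 744 CPM at 12 h, above every library at 0 h.

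Between 0 and 12 h the transcriptome was rebuilt in both directions. Of 18369 genes tested, 10327 (56.2%) passed an adjusted p of 0.05 and are called here: 5441 (29.6%) rose and 4886 (26.6%) fell. The median log2 change over all genes was -0.02, the 10th percentile -1.14 and the 90th percentile 1.54. A test against a fold of 2 left 1852 rises (10.1%) and 1004 falls (5.47%). The 3 and 3 libraries did not overlap for 6256 genes that were higher (34.1%) and for 5760 that were lower (31.4%) at 12 h. The balance depends on the scaling: 52.7% of called genes were higher with the trimmed mean of M values (TMM) used throughout and 38.6% with library totals, which shift the median by -0.20. In the account below, changes are log2 values ± standard error (SE) from edgeR, n = 3 libraries per group, a gene is said to rise or fall only if called, and list counts are read against these shares.

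**Figure D2:**
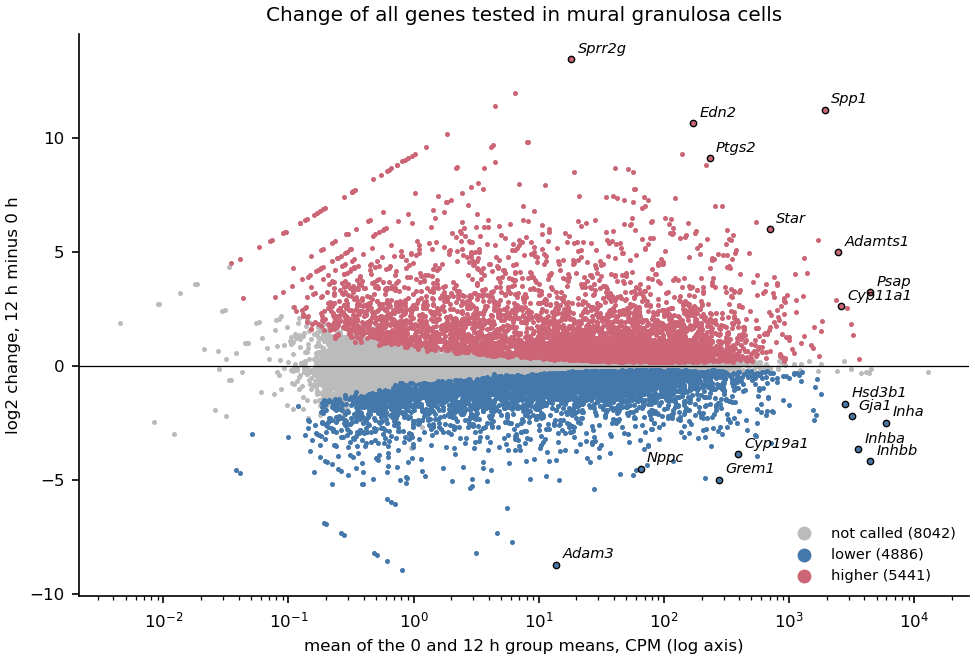
Log2 change from 0 to 12 h of each gene tested against its mean level (CPM, log axis), with 1 point per gene, 5441 rises in red, 4886 falls in blue and genes not called in grey. Named genes include Spp1 at 11.24 and Inhbb at -4.17, and for genes without counts in a group, Sprr2g among them, the plotted fit depends on the prior count.

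Among genes that averaged 20 CPM or more in their higher group and had counts at 0 h, the largest rise on the log2 scale was that of Spp1, which encodes osteopontin, a secreted matrix phosphoprotein that binds integrins and CD44. Spp1 (chromosome 5, 104435118 to 104441050 in GRCm38) read 1.02, 1.49 and 2.31 CPM at 0 h and 3475, 3849 and 4212 CPM at 12 h, a change of 11.24 ± 0.20. Every library at 12 h was far above every library at 0 h. Psap, which encodes the lysosomal saposin precursor prosaposin, gained most in CPM and read 834, 799 and 925 CPM at 0 h and 7331, 8416 and 8515 CPM at 12 h (3.25 ± 0.11). Inha, the inhibin alpha subunit, lost most and read 11102, 9937 and 9196 CPM at 0 h and 1947, 1471 and 1971 CPM at 12 h (-2.49 ± 0.14). The groups did not overlap for any of these 3 genes, and their adjusted p was at most 1.89e-09.

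Genes that make and take up cholesterol, the substrate of steroid synthesis, rose along most of the route. Of 20 enzymes of cholesterol synthesis 18 rose and none fell (median 1.33), against 29.6% of all genes tested that rose. Hmgcs1, the synthase at the head of the mevalonate pathway, read 158, 156 and 144 CPM at 0 h and 545, 674 and 608 CPM at 12 h (2.0 ± 0.09). The largest change in the list was that of Dhcr7, which makes the last step to cholesterol, with 108, 115 and 99.7 CPM at 0 h and 512, 615 and 596 CPM at 12 h (2.42 ± 0.09). Idi1 (2.0 ± 0.11), Fdps (1.95 ± 0.10), Cyp51 (1.93 ± 0.09) and Hsd17b7 (2.01 ± 0.12) rose to about 4 times their level. Mvk (0.24 ± 0.10, adjusted p = 0.0503) and Tm7sf2 (0.10 ± 0.13, adjusted p = 0.533) were not called. The adjusted p of the enzymes named as rising was at most 2.90e-08.

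Genes that control, import and store sterol rose in 12 of 17 cases and fell in 1 (12 and 3 with library totals; median 1.22). The sterol sensor partner Insig1 read 114, 104 and 91.5 CPM at 0 h and 397, 438 and 400.2 CPM at 12 h (2.0 ± 0.09). Srebf2, the transcription factor of sterol synthesis, rose by less (0.76 ± 0.09), while Srebf1 (0.09 ± 0.08) and Scap (-0.18 ± 0.09) were not called. Scarb1, the receptor of HDL, read 573, 619 and 556 CPM at 0 h and 1353, 1416 and 1456 CPM at 12 h (1.27 ± 0.10). Soat1, which esterifies cholesterol for storage, rose by 1.33 ± 0.08 and the lipid droplet coat gene Plin2 by 1.59 ± 0.13. The lysosomal cholesterol carriers went apart, with Npc2 at 1.74 ± 0.07 and Npc1 at -0.48 ± 0.08, both called.

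The cholesterol enzymes moved together, so the promoter of Hmgcs1 is shown with its sterol regulatory element in capitals. It spans chr13:119690101-119690400 on the plus strand (RefSeq, GRCm38.p6) and runs from 250 bases before to 50 after the annotated start.
Hmgcs1: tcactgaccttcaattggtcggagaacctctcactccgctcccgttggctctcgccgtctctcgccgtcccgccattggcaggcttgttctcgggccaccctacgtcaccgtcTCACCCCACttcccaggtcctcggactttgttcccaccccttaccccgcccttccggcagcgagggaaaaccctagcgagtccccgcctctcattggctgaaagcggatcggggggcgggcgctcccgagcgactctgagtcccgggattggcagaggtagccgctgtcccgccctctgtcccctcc
The letters TCACCCCAC, searched on both strands, occurred in the windows of 1 of the 15 enzymes with a promoter in the table (6.67%), of 0 of 12 genes of sterol control, uptake and storage, and of 86 of 12982 genes tested that have one (0.662%). The E-box CACGTG, which sterol factors also read, occurred in 3 of the 15 enzymes (20%), in 5 of the 12 genes of sterol control, uptake and storage (41.7%) and in 10.9% of all genes tested. A match says that the letters are there, not that a factor binds.

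Progesterone synthesis rose at its entry and fell at a later step. Star carries cholesterol into mitochondria and read 15.4, 23.3 and 26.3 CPM at 0 h and 1308, 1654 and 1206 CPM at 12 h (6.0 ± 0.22), 64.1 times its 0 h level by mean CPM. Cyp11a1, which cuts the side chain of cholesterol there, read 625, 788 and 796 CPM at 0 h and 3990.3, 5038 and 4442 CPM at 12 h (2.61 ± 0.12). Its electron donors rose as well, with ferredoxin Fdx1 at 155, 171 and 139 CPM to 2484, 2968 and 2454 CPM (4.08 ± 0.18) and the reductase Fdxr at 1.69 ± 0.14. Hsd3b1 converts pregnenolone to progesterone and went the other way, with 4589.8, 4362 and 3787 CPM at 0 h and 1354, 1361 and 1327 CPM at 12 h (-1.66 ± 0.11). The groups did not overlap for any of these genes. In the list as a whole 7 of 10 rose and 1 fell (7 and 3 with library totals; median 1.60). Akr1c18, which inactivates progesterone and is known as a luteal marker, was low at 0 h and read 9.41, 9.44 and 5.5 CPM at 0 h and 60.1, 73.8 and 60.0 CPM at 12 h (2.99 ± 0.20). Adjusted p was at most 7.97e-07 for these genes.

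**Figure D3:**
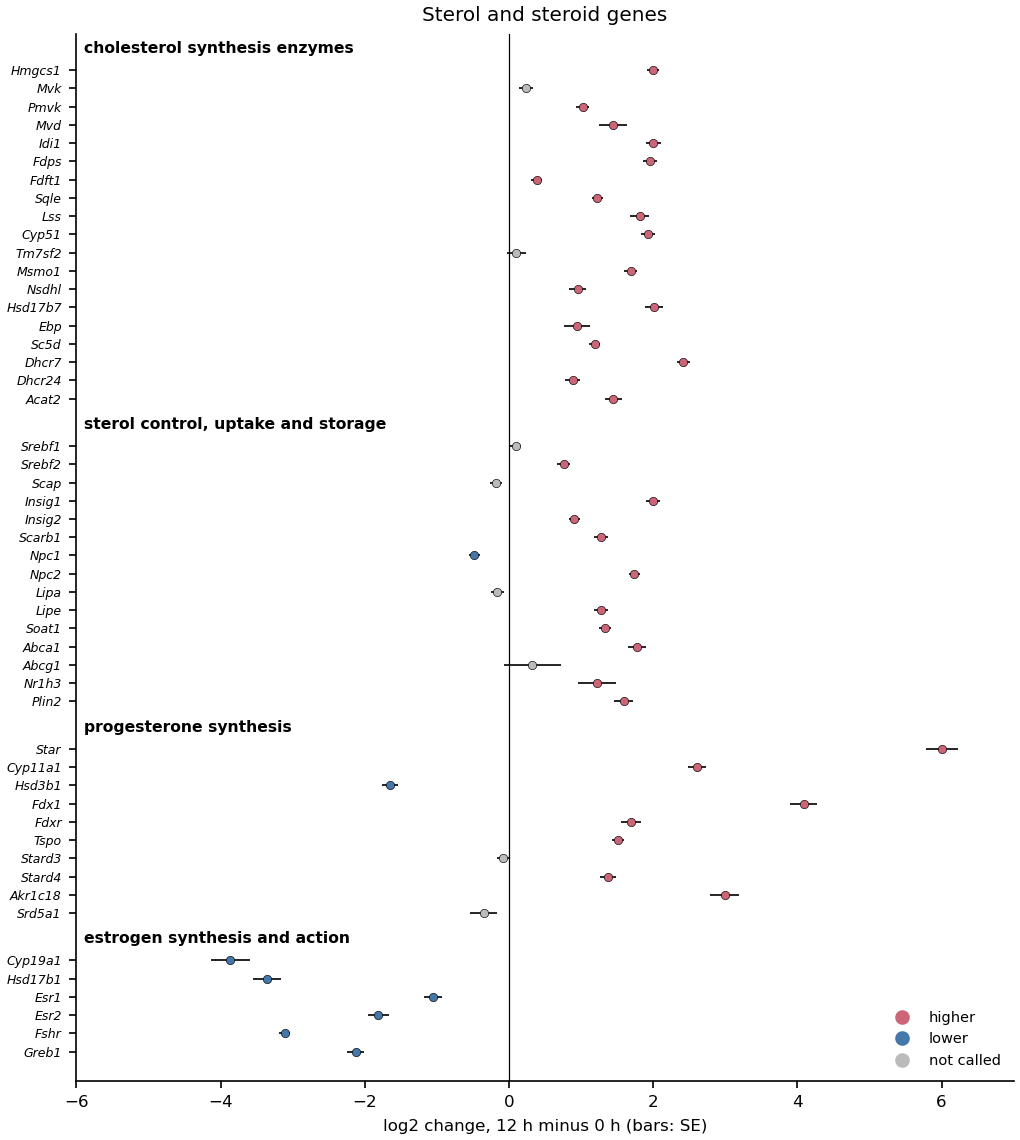
Log2 change from 0 to 12 h with its SE for genes of 4 lists, 1 row per gene. Cholesterol enzymes lie at or right of 0, Star is farthest right at 6.0, and the estrogen genes lie left of 0 with Cyp19a1 at -3.87. Not every list member is drawn, and Sult1e1, which had 3 counts at 0 h, is left out.

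The estrogen axis went down. Cyp19a1, which encodes aromatase, read 819, 806 and 577 CPM at 0 h and 59.8, 32 and 58.9 CPM at 12 h (-3.87 ± 0.27), 14.6 times lower by mean CPM. Hsd17b1 reduces estrone to estradiol and read 1459, 1334 and 1151 CPM at 0 h and 160.4, 90.1 and 134 CPM at 12 h (-3.36 ± 0.19). Both estrogen receptors fell, Esr2, the form of granulosa cells, from 405, 415 and 403 CPM to 143, 84.2 and 120.2 CPM (-1.82 ± 0.14) and Esr1 with a change of -1.06 ± 0.12, and so did the estrogen-responsive gene Greb1 (-2.13 ± 0.12). Of the 7 genes of the list 6 fell, against 26.6% of all genes tested (median -2.13). The exception was Sult1e1, which sulfates and so inactivates estrogen: 3 counts in the 0 h group and 641 at 12 h, a ratio of 262 (exact 95% interval 89.1 to 1272). Its level at 12 h was 6.77, 5.23 and 5.32 CPM, far under 1218, 1935 and 1235 CPM at 4 h.

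Receptors for the pituitary hormones parted. Fshr, the FSH receptor, fell from 249.9, 261 and 273 CPM to 30.2, 28.1 and 32.1 CPM (-3.11 ± 0.08). Lhcgr, the LH receptor on which hCG acts, read 681, 729 and 578 CPM at 0 h and 504, 573 and 589 CPM at 12 h and its groups overlapped. Its fitted change of -0.26 ± 0.10 passed the threshold (adjusted p = 0.0365), but the call was lost when replicate 1 or 2 of 0 h or replicate 1 of 12 h was left out (adjusted p = 0.0906, 0.177 and 0.173) and when all 18 libraries were fitted together (0.628). Prlr, the prolactin receptor that luteal cells need, rose from 288, 297 and 271 CPM to 567, 654 and 636 CPM (1.12 ± 0.08), with Ptgfr, the receptor of prostaglandin F2 alpha (1.48 ± 0.26), and the oxytocin receptor gene Oxtr (1.21 ± 0.11). In the list of 8 hormone receptors 4 rose and 2 fell (3 and 2 with library totals).

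Inhibins and activins, the peptide hormones by which granulosa cells restrain or raise FSH, fell in all 3 subunits. Besides Inha, the beta A subunit Inhba read 7422, 6710.4 and 5679 CPM at 0 h and 667, 375 and 549.6 CPM at 12 h (-3.64 ± 0.25) and the beta B subunit Inhbb read 9595, 8139 and 7689.7 CPM at 0 h and 533, 298 and 581 CPM at 12 h (-4.17 ± 0.22). These 3 genes had the largest losses in mean CPM of all named genes. Fst, which encodes the activin-binding protein follistatin, changed by -2.15 ± 0.17, while Fstl3, a relative of it, rose from a low level (3.04 ± 0.22). Grem1, a secreted BMP antagonist, had one of the steepest falls, with 581, 543 and 483 CPM at 0 h and 19.1, 15.2 and 16.6 CPM at 12 h (-4.98 ± 0.20). BMP receptors fell (Bmpr1b -1.76 ± 0.10, Bmpr2 -1.35 ± 0.11) except Bmpr1a (0.69 ± 0.08). The TGF-beta receptors Tgfbr1 (2.35 ± 0.08) and Tgfbr2 (1.77 ± 0.09) and the ligand Tgfb1 (1.91 ± 0.08) rose.

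Among the helix-loop-helix inhibitors that BMPs induce, Id2 and its relatives diverged. Id2 read 13.5, 13.4 and 13 CPM at 0 h and 651, 776 and 685 CPM at 12 h (5.72 ± 0.17), whereas Id1 (-0.91 ± 0.11) and Id3 (-1.70 ± 0.13) fell. Amh, the anti-Müllerian hormone gene, was not called: it read 144, 156 and 194 CPM at 0 h and 219.9, 117 and 214 CPM at 12 h (0.15 ± 0.28, adjusted p = 0.668), and its sign turned with library totals (-0.04). Across the 29 genes of inhibin, activin, BMP and TGF-beta signalling 8 rose and 13 fell (median -0.08).

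**Figure D4:**
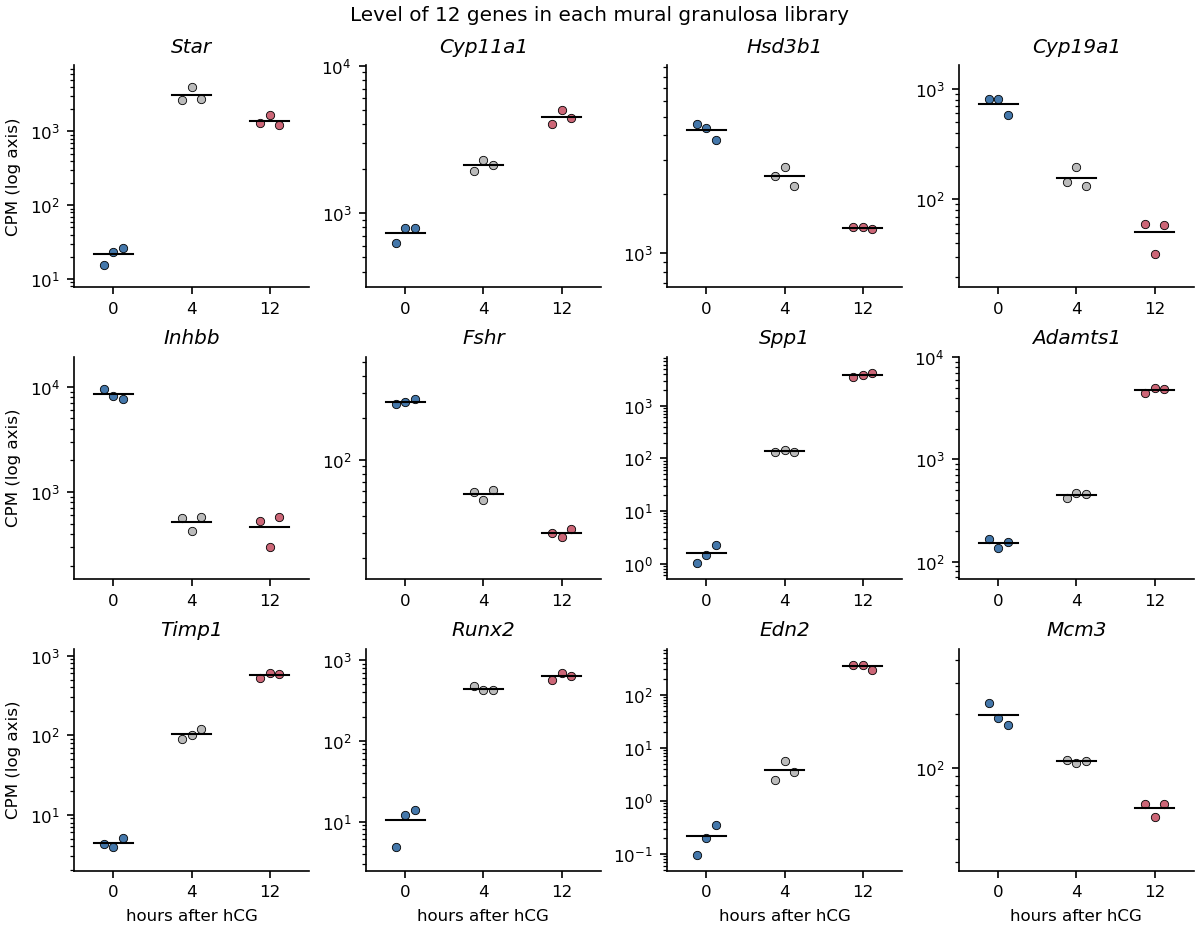
Level of 12 genes in each mural library (CPM, log axis) at 0, 4 and 12 h after hCG, 3 points per time with a bar at the mean. Star is highest at 4 h, Spp1, Adamts1, Timp1 and Edn2 are highest at 12 h, and Cyp19a1, Fshr, Hsd3b1 and Mcm3 are lower at each later time.

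Transcription factors of granulosa identity fell, with 9 of 12 lower and 1 higher (median -1.36). The single rise was that of Wt1 (0.83 ± 0.24), whose call did not survive scaling by library totals, the fit of all 18 libraries, or the loss of replicate 2 of 0 h or of replicate 1 or 3 of 12 h (adjusted p = 0.0661, 0.128, 0.0614, 0.0526 and 0.0522). Foxl2, the factor that maintains the female somatic fate, read 443, 418 and 347 CPM at 0 h and 124, 119 and 124 CPM at 12 h (-1.72 ± 0.10). Foxo1, which restrains luteinization in follicular cells, fell from 1184, 1035 and 976 CPM to 319, 228 and 258 CPM (-1.99 ± 0.13). Gata4 (-1.43 ± 0.09), Gata6 (-1.45 ± 0.09) and the steroidogenic factor Nr5a1 (-1.38 ± 0.09) fell by similar amounts. Nr5a2, the related receptor required for luteinization, was not called and its groups overlapped, with 1465, 1381 and 1176 CPM at 0 h and 1449, 1608 and 1561 CPM at 12 h (0.20 ± 0.11, adjusted p = 0.123).

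Ovulatory and luteal transcription factors rose in 7 of 12 cases and fell in 2 (median 1.21). Runx2 read 4.9, 12.1 and 14 CPM at 0 h and 561, 692 and 635 CPM at 12 h (5.94 ± 0.32) and Runx1 read 22.2, 22.6 and 19.5 CPM at 0 h and 607, 670.2 and 571 CPM at 12 h (4.84 ± 0.12). Both are Runt-domain factors and both were low in every library before hCG. Cebpb, a basic leucine zipper factor needed for luteinization, rose from 90.2, 88.5 and 80.5 CPM to 319, 329 and 290.2 CPM (1.85 ± 0.09) and Cebpa changed by 1.30 ± 0.24. Bhlhe40, a transcriptional repressor, rose by 4.30 ± 0.17. Pgr, the progesterone receptor required for follicle rupture, read 2.18, 1.96 and 2.11 CPM at 0 h and 7.17, 2.4 and 4.06 CPM at 12 h after 1616, 2625 and 1673 CPM at 4 h, and its change over 12 h was not called (1.11 ± 0.43, adjusted p = 0.0564). Of 19 alternatives beside the test against a fold of 2, 7 called Pgr higher, DESeq2 and leaving out replicate 2 of 12 h among them (adjusted p = 0.0141 and 0.00639), with a range of 2.34e-14 to 0.139 over the 19. The lowest value came from the edgeR fit without a filter on low counts, and the next lowest was 0.00639. The groups still did not overlap for Pgr. Nrip1 (-0.93 ± 0.09) and Pparg (-1.22 ± 0.11) fell.

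Of 17 immediate early transcription factors, which cells switch on within minutes of a signal, 13 were higher at 12 h and none lower (median 2.47). Egr3 rose from 0.714, 0.453 and 0.777 CPM to 52.3, 61.3 and 52.8 CPM (6.39 ± 0.26), Fosl1 by 5.53 ± 0.18 and Ier3 by 6.27 ± 0.23. Nr4a1, an orphan receptor that cAMP induces, read 34.6, 26.2 and 26.9 CPM at 0 h and 167, 173 and 146 CPM at 12 h (2.47 ± 0.35), and Nr4a3 changed by 4.46 ± 0.40. Fos, Fosb and Jun were not called. In these 3 genes replicate 1 of 0 h stood apart: Fos read 105, 20.6 and 19.4 CPM at 0 h and 59.5, 104 and 45 CPM at 12 h. Egr1 showed the same library at 104, 20.2 and 19.1 CPM before hCG and 286, 354 and 255 CPM at 12 h (2.64 ± 0.80, adjusted p = 0.0361). The call for Egr1 was lost in 10 of 19 alternatives (adjusted p = 0.0503 to 0.0976), among them leaving out replicate 2 or 3 of 0 h, replicate 1 or 3 of 4 h or any library of 12 h. Without replicate 1 of 0 h the median of the list was 3.0.

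The promoter of Nr4a1 holds 4 copies of the core cAMP response element TGACG and is shown as an example. All 4 lie on the minus strand, so the plus strand printed here has them in capitals as CGTCA. The window is chr15:101266596-101266895 (plus strand, RefSeq, GRCm38.p6).
Nr4a1: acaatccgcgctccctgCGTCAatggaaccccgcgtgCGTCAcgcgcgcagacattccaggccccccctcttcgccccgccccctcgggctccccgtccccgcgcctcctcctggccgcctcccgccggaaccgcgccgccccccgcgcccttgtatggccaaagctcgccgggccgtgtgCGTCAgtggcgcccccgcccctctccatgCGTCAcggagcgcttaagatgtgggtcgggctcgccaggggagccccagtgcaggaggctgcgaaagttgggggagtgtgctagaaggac
TGACG, searched on both strands, was in the windows of 9 of 13 immediate early genes (69.2%), against 32% of all genes tested. Among genes called higher at 12 h it was in 35.5%, and among genes called lower in 30.8%. A match shows the letters only, and the part of cAMP in these changes was not tested. It lies within the full element TGACGTCA, so the searches overlap.

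EGF-like growth factors relay the LH signal from mural to cumulus cells. Of the ligand genes described here, Areg, Ereg and Btc were lower at 12 h than at 4 h but above 0 h, and Hbegf was below 0 h. Areg, which encodes amphiregulin, read 1.2, 1.31 and 0.71 CPM at 0 h and 14.7, 17 and 14.7 CPM at 12 h (3.85 ± 0.60), after 245, 679.5 and 292 CPM at 4 h. Ereg, for epiregulin, read 1, 0.68 and 0.688 CPM at 0 h and 134, 151 and 125 CPM at 12 h (7.41 ± 0.48; 12 h minus 4 h, -2.60 ± 0.29). Btc, for betacellulin, read 2.35, 2.29 and 2.75 CPM at 0 h and 72.6, 67.9 and 68.5 CPM at 12 h (4.82 ± 0.15; 12 h minus 4 h, -4.59 ± 0.12). Hbegf went down (-1.91 ± 0.21). Feedback inhibitors of the receptor and of ERK kinase rose: Errfi1, which binds the EGF receptor, read 17.4, 20.7 and 20.5 CPM at 0 h and 564, 646 and 499 CPM at 12 h (4.87 ± 0.14), with the ERK phosphatases Dusp4 (5.45 ± 0.41) and Dusp6 (3.92 ± 0.19). The list of 16 had 11 rises and 2 falls (median 1.58; 10 and 3 with library totals).

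A full cAMP response element, TGACGTCA, is written in capitals in the promoter of Areg (chr5:91139349-91139648, plus strand, RefSeq, GRCm38.p6).
Areg: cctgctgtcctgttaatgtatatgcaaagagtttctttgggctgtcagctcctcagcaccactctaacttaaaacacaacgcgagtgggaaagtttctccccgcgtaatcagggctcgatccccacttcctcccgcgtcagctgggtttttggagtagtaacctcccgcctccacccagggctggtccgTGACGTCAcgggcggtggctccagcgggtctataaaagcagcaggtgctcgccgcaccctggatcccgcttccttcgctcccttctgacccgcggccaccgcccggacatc
Searched on both strands, it was in 3 of the 10 genes of the EGF list with a promoter (30.0%), namely Areg, Errfi1 and Dusp1, and in 3.17% of all genes tested. Among genes called higher at 12 h it was in 3.17%, and among genes called lower in 3.08%.

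Proteases that open the follicle wall rose with their inhibitors. Adamts1, a secreted metalloproteinase that cleaves versican, read 166, 135 and 154 CPM at 0 h and 4455, 5017 and 4884 CPM at 12 h (4.98 ± 0.10) and had the second largest gain in mean CPM of named genes. Its relatives Adamts4 (5.48, 5.01 and 5.64 CPM to 224, 269 and 290.4 CPM, 5.60 ± 0.11) and Adamts9 (3.69 ± 0.08) rose too. Mmp19, a matrix metalloproteinase, went from 0.926, 0.881 and 1.4 CPM to 123, 147 and 147 CPM (7.02 ± 0.28). In the list of 14 metalloproteinases 9 rose and 2 fell (median 0.81). Timp1, an inhibitor of metalloproteinases, read 4.32, 3.95 and 5.15 CPM at 0 h and 526, 612 and 596 CPM at 12 h (7.01 ± 0.12), and 7 of 9 protease inhibitors rose, with Reck (-1.92 ± 0.07) and Serpine2 (-1.21 ± 0.10) falling.

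Both plasminogen activators were higher at 12 h. Plau, the urokinase gene, read 84.2, 70.6 and 78.1 CPM at 0 h and 258, 280.5 and 268 CPM at 12 h (1.79 ± 0.10), and its receptor gene Plaur changed by 4.11 ± 0.28. Plat, the tissue-type activator, read 9.24, 20.1 and 43.8 CPM at 0 h and 76.4, 78.8 and 78.8 CPM at 12 h (1.68 ± 0.50, adjusted p = 0.0284), and its 0 h libraries differed from each other by more than 4 times. The call for Plat was lost in 6 of 19 alternatives beside the test against a fold of 2, among them leaving out any of the 3 libraries of 12 h (adjusted p = 0.0638 to 0.0723). Cathepsin L (Ctsl), a lysosomal protease under progesterone receptor control, read 1838, 1692 and 1966 CPM at 0 h and 4633, 4854 and 4519 CPM at 12 h (1.35 ± 0.10).

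Genes of the extracellular matrix moved in both directions. Of 25 collagens, laminins and glycoproteins 14 rose and 6 fell (14 and 7 with library totals). The chains of the widespread basement membrane collagen rose, with Col4a1 at 232, 226 and 378 CPM at 0 h and 2012, 2265 and 2630.5 CPM at 12 h (3.05 ± 0.19) and Col4a2 (3.01 ± 0.19), while Col4a3 (-2.09 ± 0.27) and Col4a4 (-1.96 ± 0.24) fell. The laminin chain Lamb1 (1.70 ± 0.16), perlecan (Hspg2, 1.39 ± 0.12), Sparc (2.84 ± 0.14) and the cross-linking enzymes Lox (3.85 ± 0.15) and Loxl2 (3.45 ± 0.17) rose. Fibrillar Col1a1 (-1.01 ± 0.29) and Col1a2 (-1.36 ± 0.28), which stromal cells also make, fell together with the stromal marker sum, and replicate 3 of 0 h was highest in both (294, 218 and 444 CPM for Col1a1). The call for Col1a1 was lost without replicate 1 or 2 of 12 h (adjusted p = 0.066 and 0.0667). The part of stromal cells in the fall of both was not tested.

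Of 9 genes of the hyaluronan matrix, best known from the expanding cumulus, 6 rose and none fell (6 and 1 with library totals). Tnfaip6, whose product links heavy chains to hyaluronan, read 1.2, 0.856 and 1.18 CPM at 0 h and 147, 127 and 124 CPM at 12 h (6.93 ± 0.30). Vcan, the hyaluronan-binding proteoglycan versican, read 1509, 1356 and 1256 CPM at 0 h and 4210.0, 5173 and 5244 CPM at 12 h (1.83 ± 0.12), Ptx3 changed by 5.43 ± 0.78 and the receptor gene Cd44 by 2.38 ± 0.13. Has2, the synthase, read 0.771, 0.529 and 0.732 CPM at 0 h and 9.32, 4.83 and 5.22 CPM at 12 h (3.22 ± 0.51). Integrin chains that bind fibronectin and osteopontin rose, Itga5 by 2.20 ± 0.09 and Itgb3 by 2.40 ± 0.11. In the list of 10 integrins 5 rose and 3 fell, or 5 and 5 with library totals.

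Of 16 genes of prostaglandin synthesis, transport and reception 7 rose and 3 fell (6 and 6 with library totals). Ptgs2, the inducible cyclooxygenase, read 0.617, 0.655 and 1.22 CPM at 0 h and 458, 479 and 453 CPM at 12 h (9.12 ± 0.46), after 1656, 3597 and 1818 CPM at 4 h. The other cyclooxygenase gene, Ptgs1, read 1.02, 1.56 and 1.89 CPM at 0 h and 223, 258 and 251 CPM at 12 h (7.37 ± 0.18). Slco2a1, which imports prostaglandins into cells, rose from 13.8, 12.9 and 17 CPM to 619, 723 and 684 CPM (5.54 ± 0.10). Prostaglandin E synthase (Ptges, -1.58 ± 0.10) and the degrading enzyme Hpgd (-1.91 ± 0.17) fell.

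Vasoactive and angiogenic signals included some of the steepest rises. Edn2, which encodes endothelin-2, a peptide that contracts smooth muscle, read 0.0964, 0.201 and 0.355 CPM at 0 h and 364, 366 and 295 CPM at 12 h (10.63 ± 0.58). The 0 h libraries were near the level of a few counts. The endothelin receptors fell (Ednra -0.61 ± 0.11, Ednrb -1.25 ± 0.28), and in the list 3 of 6 rose and 3 fell. Apelin (Apln) rose from 1.81, 2.9 and 2.26 CPM to 190.2, 228 and 190.5 CPM (6.46 ± 0.22), adrenomedullin (Adm) from 0.174, 0.327 and 0.222 CPM to 40.3, 47.4 and 38 CPM (7.46 ± 0.41), Angptl4 by 3.47 ± 0.10 and Vegfa from 159, 168 and 140.2 CPM to 553, 582 and 531 CPM (1.83 ± 0.09). Thbs2, an inhibitor of angiogenesis, fell (-1.89 ± 0.21). Of 10 endothelial markers Cdh5 alone rose (16.5, 17 and 19.4 CPM at 0 h and 117, 145 and 124 CPM at 12 h, 2.86 ± 0.10), while Tie1 (-1.20 ± 0.34, adjusted p = 0.0504 without replicate 3 of 0 h and 0.172 with all 18 libraries) and Egfl7 (-0.62 ± 0.18) fell and Pecam1 was not called (-0.21 ± 0.28).

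Genes of the hypoxia response rose in 12 of 14 cases and fell in none (median 1.20). Hif1a, the oxygen-regulated factor, read 436, 393 and 347 CPM at 0 h and 833, 880.0 and 810.0 CPM at 12 h (1.10 ± 0.14). Its known targets Ndrg1 (3.95, 3.52 and 4.42 CPM to 114, 133 and 103 CPM, 4.87 ± 0.17), Ankrd37 (1.54, 2.11 and 1.42 CPM to 14.3, 14.4 and 12.2 CPM, 3.01 ± 0.23), Egln3 (2.84 ± 0.36), Ddit4 (1.77 ± 0.11) and Bnip3 (93.7, 84.9 and 78.1 CPM to 204, 224 and 202 CPM, 1.30 ± 0.11) rose. Car9, often taken as a hypoxia marker, was at 1.31, 2.14 and 3.42 CPM at 0 h and 2.01, 1.86 and 2.25 CPM at 12 h and was not called (adjusted p = 0.71).

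Promoters of this list often held the core hypoxia response element ACGTG. It was found on either strand in 10 of the 12 genes with a window (83.3%), against 27.5% of all genes tested and 21.8% of the 27025 genes of the promoter table. Among genes called higher at 12 h it was in 28.9%, and among genes called lower in 27.1%. The list was chosen from known genes of this response, so its share is a description and no test of the rise. Shown with ACGTG in capitals on the strand of the gene are Ankrd37 (chr8:45999801-46000100) and Bnip3 (chr7:138909457-138909756), both on the minus strand (RefSeq, GRCm38.p6).
Ankrd37: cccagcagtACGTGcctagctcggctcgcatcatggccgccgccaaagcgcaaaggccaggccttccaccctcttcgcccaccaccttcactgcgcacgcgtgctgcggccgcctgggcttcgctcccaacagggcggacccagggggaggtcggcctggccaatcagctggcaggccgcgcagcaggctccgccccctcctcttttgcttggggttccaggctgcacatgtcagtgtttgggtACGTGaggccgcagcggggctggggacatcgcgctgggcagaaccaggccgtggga
Bnip3: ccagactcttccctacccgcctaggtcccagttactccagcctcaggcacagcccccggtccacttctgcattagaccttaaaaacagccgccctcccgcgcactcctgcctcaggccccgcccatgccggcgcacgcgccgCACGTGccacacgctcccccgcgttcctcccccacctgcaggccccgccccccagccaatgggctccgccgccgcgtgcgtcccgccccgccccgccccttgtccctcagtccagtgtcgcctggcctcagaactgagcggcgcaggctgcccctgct
Ankrd37 has 2 separate copies. In Bnip3 both copies share the E-box CACGTG, so the searches for ACGTG and CACGTG overlap there.

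Glycolysis genes moved by smaller steps: 18 of 24 genes rose and 3 fell (median 0.58; 15 and 3 with library totals). The glucose transporter Slc2a1 rose by 1.67 ± 0.11, hexokinase Hk2 from 54.8, 53.7 and 49.8 CPM to 263, 276 and 266 CPM (2.35 ± 0.09) and the regulatory enzyme Pfkfb3 by 1.84 ± 0.08. Lactate dehydrogenase A (Ldha) changed by 0.60 ± 0.12. Ldhd, the mitochondrial enzyme that oxidizes D-lactate, read 6.11, 5.36 and 6.95 CPM at 0 h and 328, 370.1 and 345 CPM at 12 h (5.82 ± 0.10). Pfkm (-1.38 ± 0.10) and the lactate carrier Slc16a1 (-1.11 ± 0.08) fell.

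Genes of DNA replication fell almost without exception, 26 of 27 (median -0.82). Mcm3, a subunit of the replicative helicase, read 232, 190.1 and 173 CPM at 0 h and 63, 53.5 and 63.2 CPM at 12 h (-1.73 ± 0.10), and all of Mcm2 to Mcm7 fell. Cdc6, which loads that helicase, changed by -1.65 ± 0.19 and the polymerase subunit Pole by -1.55 ± 0.11. Rrm2, a subunit of the reductase that makes deoxynucleotides, was the exception and rose, with 115, 105 and 87.9 CPM at 0 h and 223, 248 and 204 CPM at 12 h (1.13 ± 0.10). Its partner Rrm1 fell (-0.69 ± 0.08).

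Of 23 mitotic genes 17 were lower and none higher (median -0.45). The proliferation marker Mki67 read 446, 417 and 362 CPM at 0 h and 193, 172 and 208 CPM at 12 h (-1.10 ± 0.10) and Top2a changed by -0.93 ± 0.09. Cdk1 (-0.14 ± 0.08), Aurka (-0.01 ± 0.08) and Ccnb1 (0.20 ± 0.09) were not called. Among regulators of the cycle Ccnd2, the cyclin that FSH induces, fell from 602, 589 and 492 CPM to 208, 153 and 193 CPM (-1.60 ± 0.11), and E2f1 (-1.23 ± 0.16) and Ccne2 (-1.44 ± 0.12) fell. The brake Cdkn1a (p21) rose from 8.14, 10.3 and 7.23 CPM to 173, 213 and 174 CPM (4.45 ± 0.17). Cdkn1b (p27) rose from 95.9, 96 and 97.2 CPM to 156, 195 and 174 CPM (0.86 ± 0.08), and Cdkn2b (3.11 ± 0.37), Cdkn2d (1.79 ± 0.12) and Btg2 (3.50 ± 0.32) rose.

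**Figure D5:**
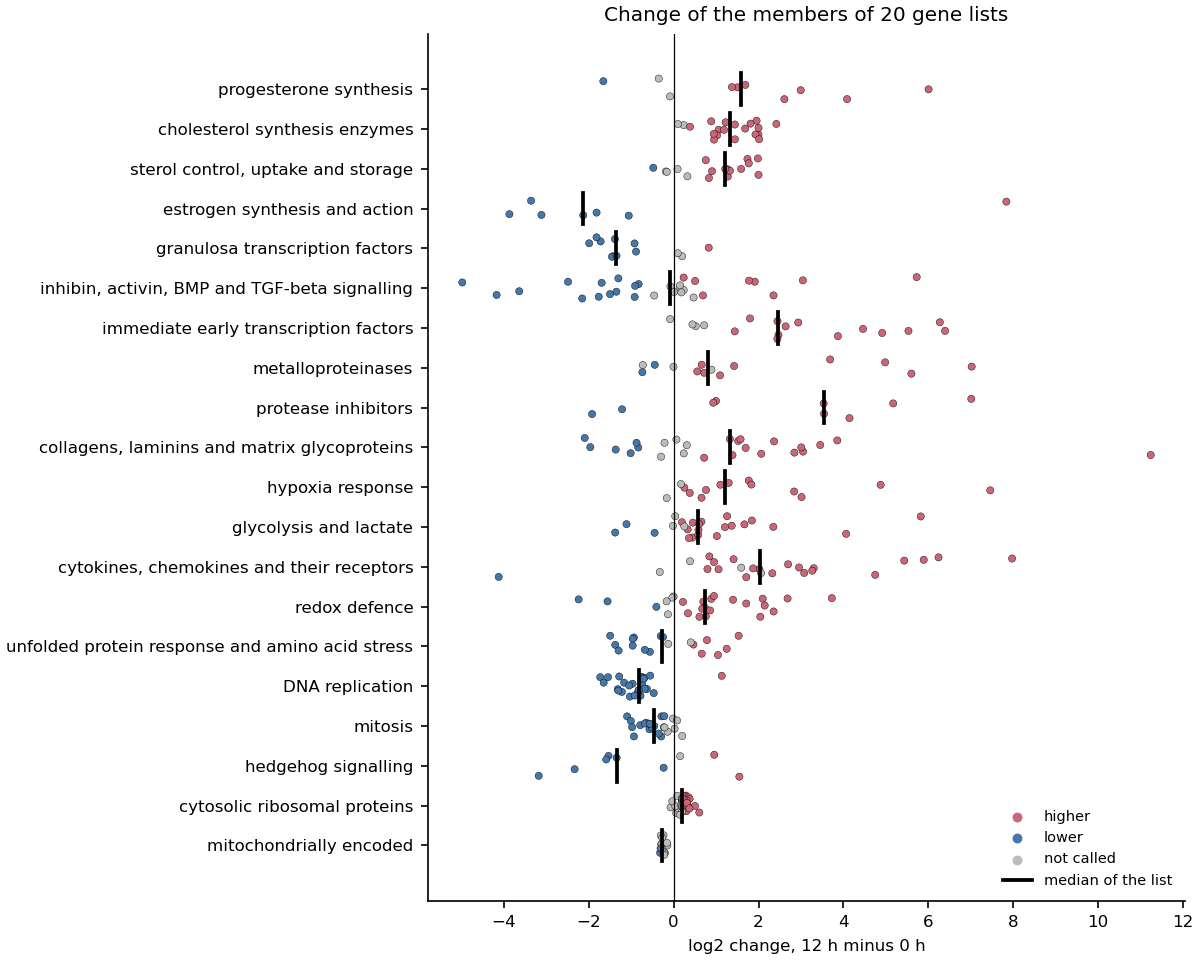
Log2 change from 0 to 12 h of the members of 20 gene lists, 1 point per gene, with red for rises, blue for falls, grey for genes not called and a black bar at the median of each list. The DNA replication points lie left of 0 except Rrm2, and the cholesterol enzymes lie right of it.

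Signals by which mural cells hold the oocyte in arrest fell. Nppc encodes C-type natriuretic peptide and read 139, 134 and 102 CPM at 0 h and 6.85, 3.18 and 6.48 CPM at 12 h (-4.51 ± 0.28). Its receptor gene Npr2, a guanylyl cyclase, fell from 681, 593 and 622 CPM to 182, 131 and 167 CPM (-1.98 ± 0.11). Gja1, the gap junction protein connexin 43, read 5450.4, 5398 and 4903 CPM at 0 h and 1260.4, 920.3 and 1257 CPM at 12 h (-2.20 ± 0.12). Prkg2, a cGMP-dependent kinase, went the other way and was among the 10 largest rises, with 0.907, 0.982 and 0.976 CPM at 0 h and 409.9, 480.4 and 412 CPM at 12 h (8.83 ± 0.15). The kinase subunit Prkar2b, a regulatory subunit of protein kinase A that FSH induces, fell from 2969.8, 2669 and 2284 CPM to 569, 441 and 540.5 CPM (-2.35 ± 0.13). The phosphodiesterases Pde4d (1.59 ± 0.14) and Pde10a (2.12 ± 0.12), which degrade cyclic nucleotides, rose. Over the list of cGMP signalling 4 of 9 rose and 4 fell.

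Cytokines, chemokines and their receptors rose in 19 of 24 cases and fell in 1. Il6, a cytokine of ovulation, read 0.0193, 0.101 and 0.0444 CPM at 0 h and 13.5, 14.2 and 13.6 CPM at 12 h (7.97 ± 0.52). Lif (5.43 ± 0.26) and the oncostatin M receptor gene Osmr (0.617, 1.06 and 1.8 CPM to 64.5, 62.1 and 77.4 CPM, 5.89 ± 0.35) belong to the same family and rose, as did the signal transducers Il6st (1.06 ± 0.07) and Stat3 (1.87 ± 0.08) and the feedback inhibitor Socs3 (3.26 ± 0.10). Cxcr4, the receptor of CXCL12, rose from 2.35, 3.22 and 3.02 CPM to 196, 223 and 226 CPM (6.24 ± 0.11). Vcam1, an adhesion molecule of leukocyte traffic, was the single fall, from 29, 20.5 and 28.4 CPM to 1.46, 1.05 and 1.94 CPM (-4.12 ± 0.22). Markers of leukocytes differed: the sum of 11 macrophage and monocyte markers was 20.3 to 39.4 CPM at 0 h and 30.1 to 37.5 CPM at 12 h, and 3 of them rose (2 rose and 1 fell with library totals), Ptprc among them (1.19 ± 0.29). Of 9 neutrophil markers 5 were tested and 4 rose, Camp most in CPM (0, 0.101 and 0.0888 CPM at 0 h and 5.94, 6.13 and 7.04 CPM at 12 h), and the summed level of all 9 was 0.366 to 1.22 CPM at 0 h and 8.66 to 10.3 CPM at 12 h. The part of such cells in the rise of cytokine genes was not tested. F3, tissue factor, the trigger of coagulation, read 5.3, 7.43 and 5.33 CPM at 0 h and 368, 373 and 333 CPM at 12 h (5.90 ± 0.40).

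Of the developmental pathways, hedgehog signalling fell in 6 of 9 genes and rose in 2 (median -1.34). Its ligand genes Ihh (380.2, 349.5 and 276 CPM to 49.8, 24 and 37.3 CPM, -3.18 ± 0.25) and Dhh (-2.33 ± 0.14), which granulosa cells send to theca, fell, and so did the response gene Gli1 (-1.59 ± 0.28), while Gli3 (1.55 ± 0.11), whose product is mainly a repressor of the pathway, and Hhip (0.96 ± 0.17), whose product binds the ligands, rose. Gli1 and Hhip are also on the list of theca markers, and the part of theca cells in their changes was not tested. The theca marker Cyp17a1, the enzyme that makes androgen, fell from 99.3, 106 and 138 CPM to 4.96, 2.75 and 6.69 CPM (-4.57 ± 0.28), beside the lower sum of theca markers given above. Wnt genes rose in 7 of 15 cases and fell in 3: Wnt4 changed by 3.48 ± 0.16, the receptor Fzd1 by 3.85 ± 0.08, and the secreted antagonist Sfrp4, a luteal marker, read 61.6, 173 and 154 CPM at 0 h and 1883, 2281 and 2131 CPM at 12 h (4.02 ± 0.33). In the Notch list Hes1 rose (2.99 ± 0.13) and Hey2 fell (-2.50 ± 0.10). The insulin receptor substrates went apart, with Irs1 at -2.28 ± 0.09 and Irs2 at 1.02 ± 0.12, and Igf1 fell (-1.21 ± 0.15).

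Stress pathways divided. In the unfolded protein response 10 of 18 genes fell, among them the chaperones Hspa5 (2243, 2098 and 2000.0 CPM to 1127, 1018 and 1168 CPM, -0.94 ± 0.10) and Calr (-0.68 ± 0.09), and 6 rose, among them the factor Atf4 (1.04 ± 0.10) and Pdia4 (1.25 ± 0.09). Redox defence rose in 18 of 25 genes and fell in 3 (median 0.73; 16 and 6 with library totals). Srxn1, which repairs peroxiredoxins, rose by 3.73 ± 0.32, glutathione reductase (Gsr) from 55.6, 49 and 47.7 CPM to 246, 283 and 249 CPM (2.35 ± 0.08) and Prdx2 by 2.04 ± 0.10. Prdx2 is also abundant in red cells, whose markers rose in the same libraries, and their part was not tested. The cystine importer Slc7a11, which feeds glutathione synthesis, read 7.37, 8.99 and 13.9 CPM at 0 h and 329, 364 and 387 CPM at 12 h (5.16 ± 0.18). Gsta4 fell (-2.24 ± 0.13).

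Housekeeping lists moved little. Of 13 mitochondrially encoded genes 2 were called lower and none higher (median -0.27; 10 lower with library totals). DESeq2 called 7 of them and limma voom 3. For 8 of the 13 every library at 12 h was below every library at 0 h, against 31.4% of all genes tested. Of 29 nuclear genes of the respiratory chain 7 rose and 9 fell, within -0.50 to 0.68, but 6 rose and 17 fell with library totals. Of 34 cytosolic ribosomal protein genes 18 rose and none fell with TMM (median 0.21), but 5 rose and 2 fell with library totals.

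Clock genes went both ways: 7 of 16 rose and 5 fell (median 0.0), or 7 and 8 with library totals, while 29.6% of all genes tested rose and 26.6% fell. Arntl, the activator of the clock, read 11.2, 10.8 and 12.6 CPM at 0 h and 79.6, 95.2 and 83.9 CPM at 12 h (2.90 ± 0.09), and Nfil3 rose by 4.48 ± 0.19, while Per3 (-1.76 ± 0.18), Ciart (-1.60 ± 0.18) and Tef (-1.04 ± 0.09) fell. Time of day is not given in the labels and its part was not tested. Of 19 genes of regulated exocytosis, known best from neurons, 11 rose and 2 fell (8 and 2 with library totals). Snap25, a SNARE protein of vesicle fusion, read 0.251, 0.151 and 0.178 CPM at 0 h and 79.7, 84.8 and 80.2 CPM at 12 h (8.67 ± 0.24), and the neuropeptide gene Nts, for neurotensin, read 0.0771, 0.151 and 0.0444 CPM at 0 h and 22, 26.2 and 18.6 CPM at 12 h (7.93 ± 0.70). Of 8 neuropeptide genes 5 rose and 1 fell. Adcyap1, for the peptide PACAP, had 3 counts in the 0 h group and 543 at 12 h, a ratio of 222 (exact 95% interval 75.5 to 1078). Syt7, a calcium sensor of exocytosis, fell from 405, 391 and 338 CPM to 67.4, 39.8 and 59.6 CPM (-2.77 ± 0.17).

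Several of the 10 largest changes so chosen lay outside these pathways. Sprr2g, of a family of small proline-rich protein genes of epithelial surfaces and a polymorphic pseudogene in GENCODE, had no count in any 0 h library and read 34.7, 42.4 and 32.1 CPM at 12 h, at least 1654-fold higher against a floor of 3 counts over the group. Its gene family holds near-identical copies that read counting can split. Dmbt1 (0.54, 0.629 and 0.444 CPM to 89.4, 147 and 115 CPM, 7.76 ± 0.27), the aminopeptidase gene Xpnpep2 (7.74 ± 0.21) and Kl, for klotho (7.46 ± 0.17), rose from under 1 CPM. The steepest fall among genes that averaged 20 CPM or more at 0 h was that of Adam3, otherwise known from sperm, with 28.5, 30.9 and 23.4 CPM at 0 h and 0.0574, 0 and 0.126 CPM at 12 h (-8.71 ± 0.61). Gpr179 (-5.38 ± 0.19), Tulp2 (-4.99 ± 0.20), Tmprss13 (-4.82 ± 0.26), Smim10l2a (-4.77 ± 0.15) and the dynein gene Dnah2 (-4.73 ± 0.14) fell as well, and Comp, a matrix glycoprotein of cartilage, read 436, 366 and 439 CPM at 0 h and 10.7, 18.6 and 11.5 CPM at 12 h (-4.93 ± 0.19).

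By gain in mean CPM, Ephx2, the soluble epoxide hydrolase, rose from 928, 894 and 723 CPM to 4732, 5645 and 4613 CPM (2.56 ± 0.13), the nucleic acid binding protein gene Ybx1 from 607, 592 and 494 CPM to 3995, 4668 and 3779 CPM (2.88 ± 0.13) and Heg1, a membrane receptor gene of vessel development, from 59.1, 71.4 and 88.2 CPM to 2941, 3474 and 3565 CPM (5.51 ± 0.13). Obsl1, a cytoskeletal adaptor, was among the 10 largest losses with 2766, 2456 and 2202 CPM to 713, 587 and 652 CPM (-1.93 ± 0.12). The groups did not overlap for any of these 4 genes.

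The 12 h level was reached by different paths. Against 4 h, 50.3% of genes were called: 5023 (27.3%) were higher at 12 h and 4210 (22.9%) lower, and at 4 h against 0 h 60.8% were called, 5498 (29.9%) higher and 5679 (30.9%) lower. With library totals these counts were 6074 higher and 3190 lower at 12 h than at 4 h, and 3375 higher and 8239 lower at 4 h than at 0 h. These comparisons share libraries with the one above, so values are set side by side only. Ptgs2 averaged 0.831 CPM at 0 h, 2357 CPM at 4 h and 463 CPM at 12 h. Areg averaged 1.07 CPM at 0 h, 405 CPM at 4 h and 15.5 CPM at 12 h. Genes of this course were far above 0 h at both later times and fell between 4 and 12 h (12 h minus 4 h: -2.35 ± 0.29 for Ptgs2 and -4.71 ± 0.40 for Areg), and Nts was another (0.0909 CPM at 0 h, 856 CPM at 4 h and 22.3 CPM at 12 h, -5.27 ± 0.18).

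Late rises took the other course. Spp1 averaged 1.61 CPM at 0 h, 137 CPM at 4 h and 3845 CPM at 12 h (12 h minus 4 h: 4.81 ± 0.15). Edn2 averaged 0.218 CPM at 0 h, 3.86 CPM at 4 h and 342 CPM at 12 h (6.46 ± 0.25), and Adamts1 151 CPM at 0 h, 449 CPM at 4 h and 4785 CPM at 12 h (3.41 ± 0.10), so in mean CPM most of each gain came after 4 h. On the log2 scale Spp1 rose more before 4 h (4 h minus 0 h: 6.42 ± 0.21). The inhibin subunits fell at different times. Inhbb was already down at 4 h (8474 CPM at 0 h, 521 CPM at 4 h and 471 CPM at 12 h), and its change from 4 to 12 h was not called (-0.15 ± 0.23, adjusted p = 0.632). Inhba averaged 6604 CPM at 0 h, 5883 CPM at 4 h and 531 CPM at 12 h (-3.47 ± 0.25) and Inha 10078 CPM at 0 h, 8494 CPM at 4 h and 1797 CPM at 12 h (-2.24 ± 0.14), and both fell between 4 and 12 h.

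The change from 0 to 12 h was also set against that of cumulus cells, which are other libraries. The titles and the table's columns name 9 libraries as cumulus, whereas the labels' cell type field calls 8 of these mural and is empty for 1. By title, Lhcgr averaged 8.52 CPM in cumulus and 662 CPM in mural libraries at 0 h, and 4.02 and 547 CPM at 12 h. Of 19941 genes tested, 40.1% differed between the cell types by an interaction term in edgeR, 20.1% with a more positive and 20% with a more negative change in cumulus cells. Cumulus libraries were known beforehand to vary more between replicates than mural ones, and no measure of this is given here. The fit used a spread shared by both, so its SE and adjusted p do not describe either cell type alone. The log2 change of Hsd3b1 was 1.58 ± 0.18 in cumulus and -1.68 ± 0.18 in mural cells, with opposite signs (difference 3.26 ± 0.26, adjusted p = 5.78e-08). For Fshr, which fell in both, it was -5.80 ± 0.20 in cumulus and -3.13 ± 0.19 in mural cells, and the difference of -2.67 ± 0.27 was called (adjusted p = 1.15e-06).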

How the data were processed

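RNA sequencing had been done on mouse mural granulosa and cumulus cells, with 3 libraries for each cell type at 0, 4 and 12 h after hCG. The deposited table holds raw counts of uniquely mapped reads, made by the authors with CLC Genomics Workbench at default parameters per the series' design text, on build GRCm38 per the submitters' processing notes. Neither version, annotation nor strandedness is stated there, so overlapping and antisense genes cannot be told apart. Of 41325 entries 40826 matched names in GENCODE M21. Libraries were grouped by title, since the cell type field of the labels reads mural for 8 of the 9 libraries titled cumulus and is empty for 1.

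Mural libraries held 32211630.0 to 47919446 counts, so 3 counts equal 0.0579 to 0.0998 CPM. The 9 mural libraries were fitted with edgeR 4.0.16 (R 4.3.3): TMM scaling with factors of 0.8514 to 1.159, genes kept with a minimum count of 10 (18369 genes with 99.94% of counts), the robust quasi-likelihood test, and Benjamini-Hochberg adjustment over all genes tested, with a threshold of 0.05. SE are Wald errors of the same fit. A few list members are counted but not reported by name here. The difference between cell types was an interaction term over all 18 libraries. On simulated counts for 18009 genes of the 12 h against 0 h comparison, 68 of 99 genes changed 2-fold, 91 of 100 changed 4-fold and 11 of 17813 unchanged genes were called. Only a small share of genes was changed there, whereas 56.2% of genes tested were called in the data. These rates therefore need not hold for the comparison itself.

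The 45 pathway lists, 13 marker lists and 42 key genes were chosen with earlier results of these data known, so their counts are descriptions. Named genes are key genes, list members, and the 10 largest log2 changes in each direction among called genes whose groups do not overlap and whose higher group averages at least 20 CPM, and the 10 largest gains and losses in mean CPM. The labels do not say whether a replicate number marks shared animals. Deviations of same-numbered libraries from their group means correlated by -0.199, 0.0512 and 0.0625 between 0 and 12 h and by -0.0367 to 0.238 between 0 and 4 h. Between mural and cumulus libraries of the same time they correlated by -0.0814 to 0.555. At 4 h these values were 0.168, 0.0922 and 0.164, against at most 0.0532 for unlike numbers. At 12 h they were 0.0256, 0.00919 and 0.0206, against at most 0.00812 for unlike numbers. At 0 h they were 0.555, -0.0814 and 0.427, against at most 0.437 for unlike numbers. Every same-numbered pair was thus above every unlike pair at 4 and 12 h, but not at 0 h. Numbers were not used to pair libraries in the main fits, and whether they mark shared animals was not tested. The test of the difference between cell types therefore leaves any pairing of mural with cumulus libraries out. Alternatives were RLE and library totals scaling, DESeq2 1.42.0, limma voom 3.58.1, other count filters and library sets, an oocyte covariate, a replicate block, a test against a fold of 2, and leaving out each library. Exact intervals and floors cover counting error only. Promoter windows are from RefSeq (GRCm38.p6) and were matched by symbol for 12982 of the genes tested.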

Additional observations from a re-analysis of the deposited data

Results flagged for a closer look

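The change from 0 to 12 h was set against the same change in cumulus cells, which come from other libraries. Of 19941 genes tested in edgeR over all 18 libraries, 4017 (20.1%) had a more positive change in cumulus cells and 3986 (20%) a more negative one. Of the 42 key genes 28 differed, and they are given as the log2 change in cumulus cells minus that in mural cells. The SE and adjusted p rest on a spread shared by both cell types, although cumulus libraries were known beforehand to vary more. Oocyte transcripts differed in level between the cumulus groups (Zp3 averaged 131 CPM at 0 h and 0.092 CPM at 12 h), and their part in these differences was not tested.

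Grem1 had opposite signs in the 2 cell types and changed by 1.13 ± 0.20 in cumulus and -5.0 ± 0.21 in mural cells (difference 6.13 ± 0.29, adjusted p = 7.21e-10). Hsd3b1 changed by 1.58 ± 0.18 in cumulus and -1.68 ± 0.18 in mural cells (difference 3.26 ± 0.26, adjusted p = 5.78e-08). Plat changed by -2.13 ± 0.58 in cumulus and 1.67 ± 0.58 in mural cells (difference -3.80 ± 0.82), Amh by -3.90 ± 0.41 in cumulus and 0.14 ± 0.40 in mural cells (-4.04 ± 0.58) and Nr5a2 by -1.24 ± 0.13 in cumulus and 0.18 ± 0.13 in mural cells (-1.42 ± 0.18). Areg had no count in cumulus cells at 0 h, so its fitted difference of 9.50 depends on the prior count and is no bound.

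Positive changes were larger in cumulus than in mural cells for Cyp11a1 (difference 2.41 ± 0.54), Akr1c18 (2.06 ± 0.34), Runx2 (2.47 ± 0.38), Spp1 (1.88 ± 0.34), Plau (1.52 ± 0.19), Ptgs2 (1.97 ± 0.71), Has2 (1.88 ± 0.56) and Cdkn1b (1.22 ± 0.18). Negative changes were smaller in cumulus cells for Inha (1.27 ± 0.27), Inhba (2.23 ± 0.37) and Gja1 (0.88 ± 0.24). Positive changes were larger in mural cells for Adamts1 (-2.15 ± 0.36), Apln (-2.43 ± 0.38), Snap25 (-1.63 ± 0.49), Runx1 (-0.99 ± 0.27) and Vegfa (-0.97 ± 0.23). Negative changes were smaller in mural cells for Fshr (-2.67 ± 0.27), Nppc (-2.20 ± 0.50), Inhbb (-1.99 ± 0.33), Ccnd2 (-1.73 ± 0.25), Foxl2 (-1.37 ± 0.23) and Npr2 (-1.13 ± 0.23). The difference for Ptgs2 was no longer called with DESeq2 (1.84, adjusted p = 0.077) or in 9 of the 12 fits without a library, and those for Has2 and Snap25 were lost in 3 and in 1 of these fits.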

How the results depend on the processing

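Between 0 and 12 h, leaving out 1 of the 9 libraries gave 4741 to 5485 rises and 4334 to 5319 falls, and the test against a fold of 2 left 1852 and 1004. Library totals gave 4134 rises and 6585 falls, and the fit of all 18 libraries 4310 and 3798. Leaving out 1 library gave 4322 to 5174 genes higher and 3691 to 4332 lower at 12 h than at 4 h, and 5016 to 5422 higher and 5227 to 5627 lower at 4 h than at 0 h, where library totals gave 3375 higher and 8239 lower. For the difference between cell types it gave 3340 to 4237 and 3375 to 3942. Whether replicate numbers mark shared animals is not given in the labels. With the replicate number as a block, 5479 genes rose and 4892 fell between 0 and 12 h, 5092 and 4256 between 4 and 12 h, and 5529 and 5701 between 0 and 4 h, and the difference between cell types gave 3939 and 3840. For that difference the block was set within each cell type, so pairing of mural with cumulus libraries was not tested.

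Of 236 called genes among the key genes and others named in the text, 226 kept call and direction in all 19 alternatives beside the test against a fold of 2, which 192 passed. Besides Lhcgr, Plat, Egr1, Wt1, Col1a1 and Tie1 above, the call was lost with all 18 libraries for Npc1, Hhip, Egfl7 and Cyp26b1 (adjusted p = 0.164, 0.0787, 0.0572 and 0.0835). Of 17 such genes that were not called, 9 were called in at least 1 of the 19 alternatives: Pgr in 7, Mvk and Scap in 5 each, Jun, Cdk1 and Ccnb1 in 2 each, and Fos, Aurka and Zp3 in 1 each. The edgeR fit without a filter on low counts was the only one to call Fos, whose groups overlapped (adjusted p = 2.93e-07). It also called Jun (2.05e-13), so its calls are weak grounds. Genes that were not called had signs that turned. With library totals Amh (-0.04), Srebf1 (-0.10) and Tm7sf2 (-0.10) were negative. With the oocyte covariate Acta2 (0.03), Car9 (0.14), Pecam1 (0.06) and Fosb (0.04) were positive. Fosb was 1.10 with limma voom and 0.41 with the replicate block. Leaving out 1 library gave -0.24 to 0.13 for Acta2, -0.45 to 0.25 for Car9, -0.43 to 0.19 for Pecam1 and -0.98 to 0.13 for Zp3, each positive without replicate 3 of 0 h. It gave -0.05 to 0.05 for Aurka and -0.86 to 3.0 for Fosb, both highest without replicate 1 of 0 h. The cause of these changes was not tested. Medians of 5 of 45 lists changed sign with library totals. At these depths genes under a few counts per library could not be tested.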

Other observations

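Some actin, keratin, junction and coagulation genes were higher at 12 h in mural cells, while 29.6% of all genes tested rose and 26.6% fell. Of 15 actin, keratin and contractile genes 11 rose and none fell (median 1.21; 10 and none with library totals). Tagln2, an actin-binding protein gene, read 18.2, 19.3 and 19.1 CPM at 0 h and 484, 527 and 454 CPM at 12 h (4.69 ± 0.12), Tpm4, for a tropomyosin, changed by 2.64 ± 0.14 and the intermediate filament gene Vim by 1.71 ± 0.10. The smooth muscle actin gene Acta2 was not called (-0.08 ± 0.23, adjusted p = 0.782). Of 8 smooth muscle and pericyte markers, Acta2 among them, 2 rose and none fell, but none rose and 2 fell with library totals. Of 14 genes of cadherins, claudins and tight junctions 7 rose and none fell, or 6 and 3 with library totals, and among them the claudin gene Cldn1 read 0.386, 0.906 and 0.888 CPM at 0 h and 20.2, 24 and 19.8 CPM at 12 h (4.89 ± 0.27). Of 13 complement and coagulation genes 8 rose and 1 fell (5 and 1 with library totals), with Procr, the receptor of protein C, at 3.01 ± 0.29 and thrombomodulin (Thbd) at 1.66 ± 0.26.

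Some transporter and retinoid genes changed too. Of 15 amino acid transporter genes 8 rose and 3 fell (6 and 3 with library totals). Slc7a1, which carries arginine and lysine, rose from 50.3, 53.3 and 45.1 CPM to 289.8, 295 and 308 CPM (2.59 ± 0.11) and the taurine transporter gene Slc6a6 from 232, 252 and 232 CPM to 1373, 1505 and 1552 CPM (2.63 ± 0.09). Of 12 retinoid genes 4 rose and 5 fell (median 0.06), or 1 and 5 with library totals. Of all genes tested 29.6% rose and 26.6% fell, so the list does not stand out by its rises. Rdh10, which makes retinaldehyde, rose (1.30 ± 0.19), and Aldh1a1 (-2.40 ± 0.11), a theca marker whose near-identical copy makes its counts uncertain, and Cyp26b1 (-1.06 ± 0.17), which degrades retinoic acid, fell.

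The following genes were chosen after their values were seen. Both metallothionein genes, whose products bind zinc and copper, were higher at each later time: Mt1 averaged 29.7 CPM at 0 h, 158 CPM at 4 h and 607 CPM at 12 h and Mt2 3.97 CPM at 0 h, 133 CPM at 4 h and 506 CPM at 12 h. Sdc4, for a heparan sulfate proteoglycan, averaged 47.6 CPM at 0 h, 62.8 CPM at 4 h and 769 CPM at 12 h, and Abcb1b, a multidrug efflux pump gene, 14 CPM at 0 h, 73.3 CPM at 4 h and 654 CPM at 12 h. Cemip, whose product degrades hyaluronan, averaged 18.8 CPM at 0 h, 61.9 CPM at 4 h and 469 CPM at 12 h and Hdc, the enzyme that makes histamine, 6.96 CPM at 0 h, 21.8 CPM at 4 h and 181 CPM at 12 h. Bmp3 had passed a maximum and ended below its start, with 279 CPM at 0 h, 1181 CPM at 4 h and 36.2 CPM at 12 h. No test of these paths was made.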
